A study of Mus musculus with 9 samples.

Results

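The genes described here were those of the Wnt pathway: 66 of the 40213 gene symbols counted in each library. They were picked by a rule on names that used no measured value, but with earlier results of these data known. They were the 19 Wnt ligands, 14 receptors (the frizzleds, Lrp5, Lrp6, Ror1 and Ror2), 9 genes of the R-spondin axis (Rspo1 to Rspo4, Lgr4 to Lgr6, Znrf3 and Rnf43), 15 antagonists (the Dickkopfs, the secreted frizzled-related proteins with Frzb, Sost, Sostdc1, Wif1, Notum and the Kremen receptors) and 9 intracellular genes (Ctnnb1, Axin1, Axin2, Nkd1, Nkd2, Lef1, Tcf7, Tcf7l1 and Tcf7l2). Of these, Axin2, Nkd1, Notum, Lef1, Tcf7, Lgr5, Znrf3 and Rnf43 have been described as genes that Wnt signaling itself turns on.

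The libraries came from primary pre-osteoblasts of the calvaria, the flat skull bones, of wild-type ICR mouse pups that were 3 days old. All 3 groups were kept under normoxia in medium with L-AA (ascorbic acid) at 50 μg/ml and β-Gp (β-glycerophosphate) at 5 mM, which drives osteogenic differentiation, were infected with an adenovirus on day 3 and were harvested on day 6. The groups differed in the vector: Ad-C, the control adenovirus, Ad-Hif1a, which expresses the hypoxia-inducible factor subunit HIF-1α, and Ad-Hif2a, which expresses HIF-2α, with 3 libraries each and 9 in all. The cultures were whole primary cultures, and the dose of virus behind these libraries was not given in the sources used here. The p-values measure the spread between libraries of a group that was left after differences between replicate numbers were fitted, over all 9 libraries. The study's reporting says that n counted independent experiments or mice, but no source used here ties a library to a culture or an animal.

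Wnt ligands are lipid-modified secreted proteins that bind frizzled receptors together with LRP5 or LRP6, which stabilizes β-catenin and lets it act with TCF/LEF factors in the nucleus. Secreted frizzled-related proteins and WIF1 bind Wnts outside the cell, and sclerostin and some but not all Dickkopf proteins bind LRP5 and LRP6. R-spondins acting through LGR receptors keep the ubiquitin ligases ZNRF3 and RNF43 from removing frizzleds from the cell surface. In bone, β-catenin signaling favors the osteoblast lineage, and loss of LRP5 function lowers bone mass.

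Each library held 14372589 to 18623403 counts, the fewest in Ad-Hif2a replicate 3. Hif1a was at 186 to 193 CPM (counts scaled to a common library total) in Ad-C, 1240 to 2325 in Ad-Hif1a and 447 to 585 in Ad-Hif2a, and Epas1, the gene of HIF-2α, was at 41.9 to 48.8, 407 to 679 and 823 to 2181 CPM, so that each vector group stood above Ad-C for both genes. Ad-Hif1a replicate 1 and Ad-Hif2a replicate 3 stood apart from the other libraries of their groups: they had the lowest level of the gene their vector carries, and mitochondrial genes took 2.84 and 2.71% of their counts against 3.56 to 6.17% in the other 7. The 10 osteoblast markers summed to 52148 to 73056 CPM in every library, nearly all of it from Col1a1, Col1a2, Sparc and Spp1, while Bglap, the osteocalcin gene, was at 0.457 to 5.99 CPM and Ibsp at 1.38 to 3.37 CPM. Of the 10 none rose, and Sp7, Alpl and Bglap fell with both vectors and Runx2 with Ad-Hif2a. Of 9 macrophage markers 7 fell with each vector, and their sum was 3224 to 3455 CPM in Ad-C, 1358 to 1510 in Ad-Hif1a and 1396 to 1653 in Ad-Hif2a. The summed skeletal muscle markers (2 of 8 fell and 1 rose with each vector) went from 57.2 to 69.0 CPM in Ad-C to 11.2 to 13.8 and 6.43 to 9.66. Most of that sum in Ad-C was Myh1, which went from 52.0 to 61.9 CPM to 1.93 to 3.14 and 0.885 to 2.29. Acta1 rose with both vectors (log2 fold change of 3.22 and 2.47). The summed chondrocyte markers (1 of 5 fell with Ad-Hif1a and 2 with Ad-Hif2a) went from 189 to 211 CPM to 109 to 125 and 80.4 to 96.6. Of 6 osteocyte markers Sost and Fgf23 were at 0 in every library, Phex fell with both vectors (log2 fold change of -1.30 and -1.55), Dmp1 fell with Ad-Hif2a (-2.25) and Pdpn rose with both, with which the list sum went from 232 to 254 CPM in Ad-C to 493 to 553 and 553 to 690.0. The 5 smooth muscle and pericyte markers summed to 2649 to 2841 CPM in Ad-C, 2657 to 4003 in Ad-Hif1a and 2601 to 3867 in Ad-Hif2a. None of them was called with Ad-Hif1a, and Myh11 fell with Ad-Hif2a (-0.95). The endothelial, adipocyte and glial lists each summed to at most 50.3 CPM in any library. These markers moved with the same vectors as the Wnt genes below, their part in the results was not tested, and in bulk RNA fewer cells of a type and less RNA per cell cannot be told apart.

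Of the 66 genes 47 passed the filter on low counts and were tested: 9 of 19 ligands, 13 of 14 receptors, 7 of 9 genes of the R-spondin axis, 10 of 15 antagonists and 8 of 9 intracellular genes. No count was seen in any library for Wnt3, Wnt3a, Wnt8a, Wnt9b, Rspo4, Dkk4, Sfrp5 and Sost, and a count of 0 allows up to 3 counts in a library, or 0.16 to 0.218 CPM, for counting error only. The other 11 (Wnt1, Wnt4, Wnt7a, Wnt7b, Wnt8b, Wnt11, Fzd10, Rnf43, Dkk1, Kremen2 and Lef1) were counted in at least 1 library but lay under the filter. Sost, which encodes sclerostin and marks mature osteocytes, and the ligands Wnt3a and Wnt9b were thus not detectable at this depth.

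The question was which Wnt genes differ between cells given either HIF vector and cells given the control vector. With Ad-Hif1a, 7 of the 47 tested genes rose and 4 fell at an adjusted p under 0.05 (edgeR quasi-likelihood test, Benjamini-Hochberg adjustment over all 14413 genes tested). Over all genes 6.04% rose and 5.22% fell, against 14.9 and 8.51% of the Wnt genes. With Ad-Hif2a, 6 rose and 10 fell, or 12.8 and 21.3%, against 7.87 and 7.72% of all genes. The median log2 fold change of the 47 was -0.11 with Ad-Hif1a and -0.23 with Ad-Hif2a, against 0.01 over all genes tested in each comparison. Wnt2b, Lgr6, Sfrp1, Frzb, Wif1 and Nkd2 rose with both vectors, and Fzd9, Lgr5, Sfrp2 and Nkd1 fell with both, all 10 by over 2-fold in both comparisons. At an adjusted p under 0.05 and over 2-fold, 6 Wnt genes rose and 4 fell with Ad-Hif1a (background 4.61 and 3.57%), and 6 rose and 7 fell with Ad-Hif2a (background 5.99 and 5.23%). Rspo3 was called with Ad-Hif1a alone, Fzd8, Ror1, Lgr4, Dkk3, Sostdc1 and Tcf7l2 with Ad-Hif2a alone, and 30 genes in neither. These differences in call between the vectors turned on the fit. Without the replicate block, and in DESeq2, Ror1, Dkk3, Sostdc1 and Tcf7l2 also fell with Ad-Hif1a and Rspo3 also rose with Ad-Hif2a. Fzd8 and Lgr4 were still called with Ad-Hif2a alone in those fits. Both also fell with Ad-Hif1a when Ad-Hif2a replicate 3 was left out, alone or together with Ad-Hif1a replicate 1. The 2 comparisons share the Ad-C libraries. All 3 Ad-Hif1a libraries lay above all 3 Ad-C libraries for 12 of the 47 (25.5%, against 24.5% of all genes) and below them for 16 (34.0%, against 25.9%). For Ad-Hif2a the numbers were 9 above (19.1%, against 24.0%) and 19 below (40.4%, against 25.5%). The unadjusted p was under 0.05 for 21 of the 47 with Ad-Hif1a (44.7%, against 26.2%) and 25 with Ad-Hif2a (53.2%, against 33.9%).

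The counts moved with single libraries. The share of all genes called moved too, from 11.3% with Ad-Hif1a and 15.6% with Ad-Hif2a in the main fit. In the fits that left libraries out, 48 or 49 Wnt genes were tested. Without Ad-Hif2a replicate 3, 9 rose and 14 fell with Ad-Hif1a (36.4% of all genes called). With Ad-Hif2a the counts were 8 and 13 (22.6%). Without it and Ad-Hif1a replicate 1 together they were 9 and 15 (27.6%), and 10 and 14 (28.7%). Without Ad-C replicate 1 the counts were 3 and 2 with Ad-Hif1a (2.99%) and 4 and 4 with Ad-Hif2a (4.67%). Without Ad-C replicate 3 they were 3 and 2 (3.31%), and 4 and 3 (5.23%). Without Ad-C replicate 2, 3 fell with Ad-Hif2a (6.89% of all genes called in either direction). Without Ad-Hif1a replicate 2, 4 rose and 2 fell with Ad-Hif1a (3.17%) and 5 fell with Ad-Hif2a (9.41%). Without Ad-Hif1a replicate 1, 2 fell with Ad-Hif1a (5.03%), and without Ad-Hif2a replicate 1, 4 fell with Ad-Hif2a (7.22%). Lgr5, Lgr6, Nkd1 and Nkd2 passed the test in both comparisons whichever library was left out, as did Wnt2b and Sfrp2 with Ad-Hif2a, and none of the called genes changed direction. In a test against a fold of 1.5 the calls of Fzd9, Rspo3 and Sfrp2 with Ad-Hif1a and of Fzd8, Fzd9, Ror1, Lgr4, Dkk3 and Tcf7l2 with Ad-Hif2a were lost. When only the 6 libraries compared were fitted, Fzd8, Dkk3 and Tcf7l2 were not called with Ad-Hif2a (adjusted p = 0.0976, 0.0825 and 0.0576).

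**Figure D1:**
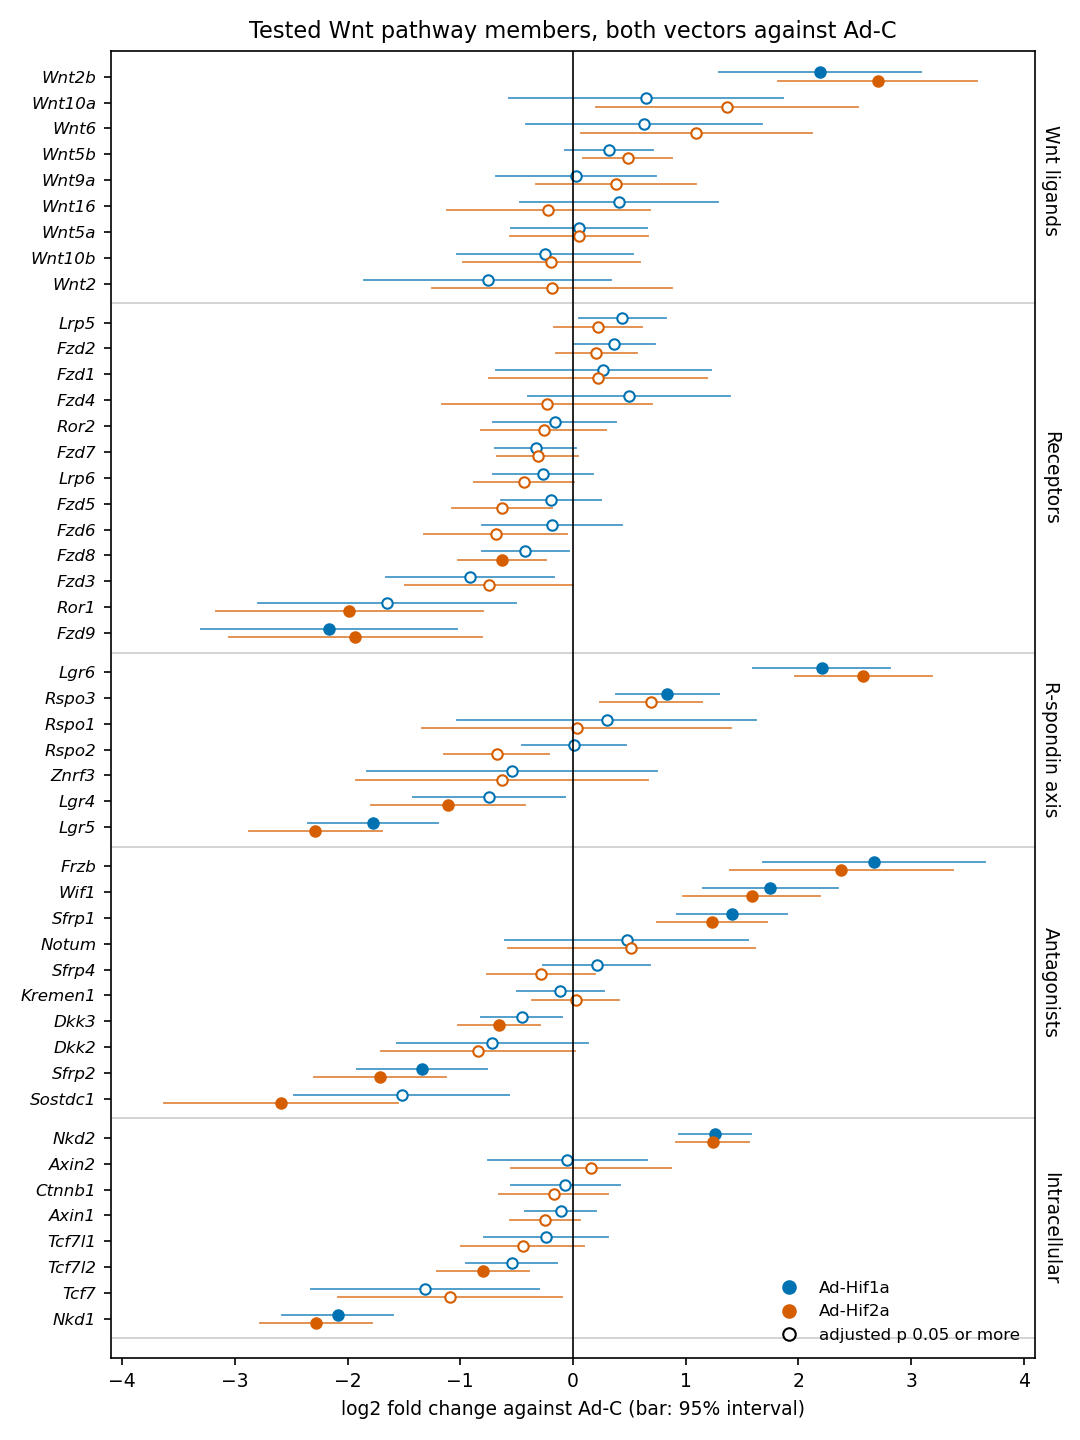
Log2 fold change of the 47 tested Wnt genes against Ad-C (x axis), by role, for Ad-Hif1a in blue and Ad-Hif2a in orange, with 95% intervals as bars; filled points passed an adjusted p of 0.05. Lgr6 and Lgr5 lie on opposite sides of 0, as do Nkd2 and Nkd1, and Frzb and Sfrp2, while Ctnnb1, Axin2 and Wnt5a lie near 0.

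Among the ligands, 1 of 9 tested genes, Wnt2b, was called. Of all genes tested, 11.3% were called with Ad-Hif1a and 15.6% with Ad-Hif2a. Wnt2b, a ligand of the canonical branch, was at 0.276, 0.393 and 0.695 CPM in Ad-C, 2.10, 1.98 and 1.99 in Ad-Hif1a and 2.95, 2.00 and 4.08 in Ad-Hif2a. All 6 vector libraries lay above all 3 Ad-C libraries, on 5, 7 and 13 counts in Ad-C, and the highest level was that of Ad-Hif2a replicate 3. On the log2 scale Wnt2b differed from Ad-C by 2.19 ± 0.38 (SE) with Ad-Hif1a (adjusted p = 0.0117) and 2.70 ± 0.38 with Ad-Hif2a (adjusted p = 0.00381). With Ad-Hif1a the call was lost without any one of the 3 Ad-C libraries, Ad-Hif1a replicate 1 or Ad-Hif1a replicate 2 (adjusted p of 0.0516 to 0.0809).

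The promoter of Wnt2b, the 250 bases before its start site, is shown because Wnt2b was the ligand that rose; the capitals mark the core of the hypoxia response element, the short sequence that HIF dimers bind (ACGTG or GCGTG on either strand, so CACGT or CACGC as printed where the match is on the other strand). It is from RefSeq in the GRCm38.p6 build (chr3:104961710-104961959, reverse strand), as are all promoters below.
Wnt2b: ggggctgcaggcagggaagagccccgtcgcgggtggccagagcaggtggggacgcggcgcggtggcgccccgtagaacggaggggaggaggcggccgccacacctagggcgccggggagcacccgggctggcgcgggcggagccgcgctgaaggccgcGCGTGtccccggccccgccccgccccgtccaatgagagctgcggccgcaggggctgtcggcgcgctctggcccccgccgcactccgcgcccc
The core was found in 26 of the 44 Wnt promoters that the table held (59.1%), against 38.6% of all 27025 promoters in it and 55.3% of the 11104 that belong to genes tested. The median GC content was 68.0, 52.0 and 59.6% in these sets. The core of the TCF/LEF site (CTTTGAT or CTTTGTT, either strand) was found in 3 of the 44 (6.82%) against 8.04% of all and 5.37% of those of genes tested. A match is a description of these letters and not a bound site.

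None of the other 8 tested ligands was called. Wnt5a, the main ligand of the β-catenin-independent branch, averaged 25.5 ± 2.83 CPM (SD, n = 3) in Ad-C, 26.5 ± 4.79 in Ad-Hif1a and 26.4 ± 7.25 in Ad-Hif2a, with log2 fold changes of 0.06 (95% interval -0.55 to 0.66) and 0.05 (-0.56 to 0.66). Wnt5b was at 6.18, 7.12 and 6.84 CPM in Ad-C, 8.72, 8.38 and 8.01 in Ad-Hif1a and 9.38, 9.55 and 9.25 in Ad-Hif2a. The 3 groups of Wnt5b did not overlap, in that order, yet neither comparison passed (0.32, adjusted p = 0.276, and 0.48, adjusted p = 0.0938). Wnt5b was called as risen with Ad-Hif2a without the replicate block. Wnt9a was at 3.29 ± 0.197, 3.35 ± 0.346 and 4.37 ± 1.61 CPM. Per kilobase of exon, Wnt5a made up 34.8 to 37.6% of the summed ligand level in Ad-C, 30.4 to 38.3% in Ad-Hif1a and 21.2 to 34.8% in Ad-Hif2a, and Wnt5b 26.6 to 29.2%, 28.5 to 35% and 28.9 to 32.2%. The sum over all 19 ligands was 8.06 to 9.70 CPM per kb in Ad-C, 9.41 to 10.6 in Ad-Hif1a and 10.8 to 12.2 in Ad-Hif2a. Some exons of Wnt5a lie opposite another annotated gene (4.58% of its exon bases), and whether counting used strand was not given in the sources used here.

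Wnt7b, a ligand that has been tied to bone formation, lay under the filter and was picked out after its values were seen: it had 9, 15 and 13 counts in Ad-C, 2, 1 and 1 in Ad-Hif1a and 0, 5 and 0 in Ad-Hif2a. Each Ad-C library had more than any vector library. It was called as fallen with Ad-Hif1a when Ad-Hif2a replicate 3 was left out and with Ad-Hif2a when Ad-Hif2a replicate 2 was left out, where it passed the filter, and with Ad-Hif1a also when Ad-Hif1a replicate 1 and Ad-Hif2a replicate 3 were left out together. With no filter on low counts and all 9 libraries it was called in neither comparison.

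Among the 13 tested receptors none rose, 1 fell with Ad-Hif1a (Fzd9) and 3 fell with Ad-Hif2a (Fzd8, Fzd9 and Ror1). Fzd9, a frizzled that mouse osteoblasts need for mineralization, was at 1.99, 1.79 and 1.82 CPM in Ad-C, 0.397, 0.582 and 0.249 in Ad-Hif1a and 0.354, 0.343 and 0.801 in Ad-Hif2a. Every vector library lay below every Ad-C library, on 4 to 11 counts each. Fzd9 had a log2 fold change of -2.16 ± 0.48 (SE) with Ad-Hif1a (adjusted p = 0.0299) and -1.93 ± 0.48 with Ad-Hif2a (adjusted p = 0.0347). Ror1, a tyrosine kinase-like receptor for Wnt5a, was at 6.63, 5.78 and 7.86 CPM in Ad-C, 1.81, 1.34 and 3.42 in Ad-Hif1a and 1.30, 2.86 and 0.874 in Ad-Hif2a. Ror1 thus lay lower in all 6 vector libraries, with a spread among them from 0.874 to 3.42 CPM. In the test, the log2 fold change of Ror1 was -1.65 ± 0.49 (SE) with Ad-Hif1a (adjusted p = 0.0776) and -1.98 ± 0.51 with Ad-Hif2a (adjusted p = 0.0392). Ror2, its paralogue, averaged 20.8 ± 2.85, 18.6 ± 0.493 and 17.5 ± 4.84 CPM and was not called, and the share of Ror1 in the summed Ror1 and Ror2 level per kb was 17.8 to 20.6% in Ad-C, 5.07 to 11.6% in Ad-Hif1a and 4.73 to 8.98% in Ad-Hif2a.

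Fzd8 was at 24.3, 28.5 and 26.4 CPM in Ad-C, 19.9, 18.3 and 20.7 in Ad-Hif1a and 15, 15.9 and 20.7 in Ad-Hif2a. Both vector groups of Fzd8 lay below Ad-C, and overlapped each other. Its log2 fold change was -0.43 ± 0.17 (SE) with Ad-Hif1a (adjusted p = 0.156) and -0.63 ± 0.17 with Ad-Hif2a (adjusted p = 0.0432). Fzd8 was called as fallen with Ad-Hif1a too when Ad-Hif2a replicate 3 was left out, alone or together with Ad-Hif1a replicate 1. The Ad-Hif2a call of Fzd8 was lost without any one of the 3 Ad-C libraries, Ad-Hif1a replicate 1 or 2, or Ad-Hif2a replicate 1 or 2 (adjusted p of 0.0602 to 0.185), and also with no filter on low counts (0.0623) and with at least 10 counts in every library (0.0527). That of Fzd9 was lost without the same 7 libraries (0.0575 to 0.185), and its Ad-Hif1a call without any one of the Ad-C or Ad-Hif1a libraries or Ad-Hif2a replicate 1 (0.0515 to 0.185). The call of Ror1 was lost without any one of the Ad-C libraries, Ad-Hif1a replicate 1 or Ad-Hif2a replicate 1 (0.0575 to 0.18).

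The receptors with the highest counts were not called. Fzd1 was at 128, 129 and 135 CPM in Ad-C, 115, 149 and 205 in Ad-Hif1a and 198, 200.003 and 69.5 in Ad-Hif2a. Its vector libraries lay on both sides of Ad-C, with Ad-Hif1a replicate 1 and Ad-Hif2a replicate 3, the libraries that stood apart, below it and the other 4 above it. Fzd1 rose with Ad-Hif2a when Ad-Hif2a replicate 3 was left out, and with both vectors when both of these libraries were left out. Lrp5 and Lrp6, the co-receptors of the canonical branch, averaged 57.3 ± 5.41 and 102 ± 7.44 CPM in Ad-C, 77.8 ± 2.62 and 85.9 ± 15.6 in Ad-Hif1a, and 67.2 ± 10.4 and 76 ± 12.8 in Ad-Hif2a. The 95% interval of the log2 fold change was 0.05 to 0.83 and -0.17 to 0.61 for Lrp5, and -0.71 to 0.18 and -0.88 to 0.01 for Lrp6. Lrp5 was called as risen with Ad-Hif1a when Ad-Hif2a replicate 3 was left out and when only the 6 libraries compared were fitted, and with both vectors when Ad-Hif1a replicate 1 and Ad-Hif2a replicate 3 were left out together. Per kb, Lrp5 made up 43 to 44.6% of the pair in Ad-C, 51.2 to 61.8% in Ad-Hif1a and 53.6 to 57.9% in Ad-Hif2a.

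In the R-spondin axis Lgr6 rose and Lgr5 fell with both vectors, and Lgr4 fell with Ad-Hif2a. LGR4, LGR5 and LGR6 are related receptors that all bind R-spondins, and Lgr5 is known as a stem cell marker in several epithelia. Lgr5 was at 136, 137 and 147 CPM in Ad-C, 32.4, 41.6 and 51.8 in Ad-Hif1a and 18.8, 42.5 and 28.9 in Ad-Hif2a. The lowest Ad-C library was thus far above the highest vector library, and the vector groups overlapped. The log2 fold change of Lgr5 was -1.77 ± 0.24 (SE) with Ad-Hif1a (adjusted p = 0.00522) and -2.28 ± 0.25 with Ad-Hif2a (adjusted p = 0.00167).

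Lgr6, in contrast, was at 1.16, 1.51 and 1.02 CPM in Ad-C, 5.95, 5.70 and 5.16 in Ad-Hif1a and 7.67, 10.2 and 4.73 in Ad-Hif2a. All vector libraries lay above all Ad-C libraries, the lowest of them being Ad-Hif2a replicate 3. On the log2 scale Lgr6 differed from Ad-C by 2.21 ± 0.26 (SE) with Ad-Hif1a (adjusted p = 0.00250) and 2.58 ± 0.26 with Ad-Hif2a (adjusted p = 0.00107). The promoter of Lgr6 (chr1:135105277-135105526, reverse strand) is shown as that of the receptor that rose; it held 1 core, on the opposite strand, at position -228 from the start site.
Lgr6: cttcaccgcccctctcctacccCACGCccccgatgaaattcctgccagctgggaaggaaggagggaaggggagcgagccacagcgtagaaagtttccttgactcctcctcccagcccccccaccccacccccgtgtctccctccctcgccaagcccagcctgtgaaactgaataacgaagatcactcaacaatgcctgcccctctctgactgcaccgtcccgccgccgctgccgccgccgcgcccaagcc

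Lgr4 was at 36.4, 38.5 and 39.6 CPM in Ad-C, 17.3, 21.6 and 29.6 in Ad-Hif1a and 20.2, 21.1 and 11.6 in Ad-Hif2a. Its vector libraries all lay below Ad-C and overlapped each other, with the lowest level in Ad-Hif2a replicate 3. Lgr4 had a log2 fold change of -0.75 ± 0.29 (SE) with Ad-Hif1a (adjusted p = 0.156) and -1.11 ± 0.29 with Ad-Hif2a (adjusted p = 0.0430). The call with Ad-Hif2a was lost without any one of the 3 Ad-C libraries, Ad-Hif1a replicate 2, or Ad-Hif2a replicate 1 or 2 (adjusted p of 0.0697 to 0.187). Lgr4 was called as fallen with Ad-Hif1a too without Ad-Hif1a replicate 3 and in the fit of only the 6 libraries compared. The same held when Ad-Hif2a replicate 3 was left out, alone or together with Ad-Hif1a replicate 1. Per kb of exon, Lgr6 made up 0.698 to 1.10% of the summed level of the 3 receptors in Ad-C, 6.95 to 12.5% in Ad-Hif1a and 12.6 to 17.6% in Ad-Hif2a, and Lgr5 66.4 to 67.6%, 45.3 to 47.4% and 28.7 to 51.4%. Lgr5 remained at a higher level per kb than Lgr6 in every library, and the sum of the 3 went from 19.6 to 21.2 CPM per kb in Ad-C to 6.96 to 10.8 in Ad-Hif1a and 5.48 to 9.22 in Ad-Hif2a.

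Of the R-spondins, the secreted ligands of these receptors, Rspo3 was at 51.8, 58.8 and 50.8 CPM in Ad-C, 77.7, 99.6 and 111 in Ad-Hif1a and 96.3, 93.7 and 71 in Ad-Hif2a. Both vector groups of Rspo3 lay above Ad-C. In the test, the log2 fold change of Rspo3 was 0.84 ± 0.19 (SE) with Ad-Hif1a (adjusted p = 0.0350) and 0.70 ± 0.19 with Ad-Hif2a (adjusted p = 0.0514), so that it rose with Ad-Hif1a while the Ad-Hif2a value missed the threshold. Rspo3 was also called as risen with Ad-Hif2a without the replicate block, in DESeq2, with RLE factors, and without Ad-Hif1a replicate 3 or Ad-Hif2a replicate 3. The call with Ad-Hif1a was lost without any one of the 3 Ad-C libraries, Ad-Hif1a replicate 2 or 3, or Ad-Hif2a replicate 2 (adjusted p of 0.0581 to 0.194), and 13.1% of the exon bases of Rspo3 lie opposite another annotated gene. Rspo2 was at 79.6, 84.9 and 76.8 CPM in Ad-C, 67.9, 84.5 and 91.1 in Ad-Hif1a and 47.5, 66.7 and 38.9 in Ad-Hif2a. Rspo2 overlapped with Ad-C in the Ad-Hif1a group only, and all Ad-Hif2a libraries lay lowest. Its log2 fold change was 0.01 (adjusted p = 0.975) and -0.68 (adjusted p = 0.0605). Rspo2 was called as fallen with Ad-Hif2a without the replicate block and in DESeq2. It was also called without any one of Ad-Hif1a replicate 3, Ad-Hif2a replicate 2 and Ad-Hif2a replicate 3. Dropping both of the libraries that stood apart gave the same call for Rspo2. Per kb, Rspo3 made up 50.2 to 52.9% of the R-spondin level in Ad-C, 64.2 to 65.6% in Ad-Hif1a and 68.3 to 75.9% in Ad-Hif2a. Rspo1 and the ligase gene Znrf3 were not called.

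**Figure D2:**
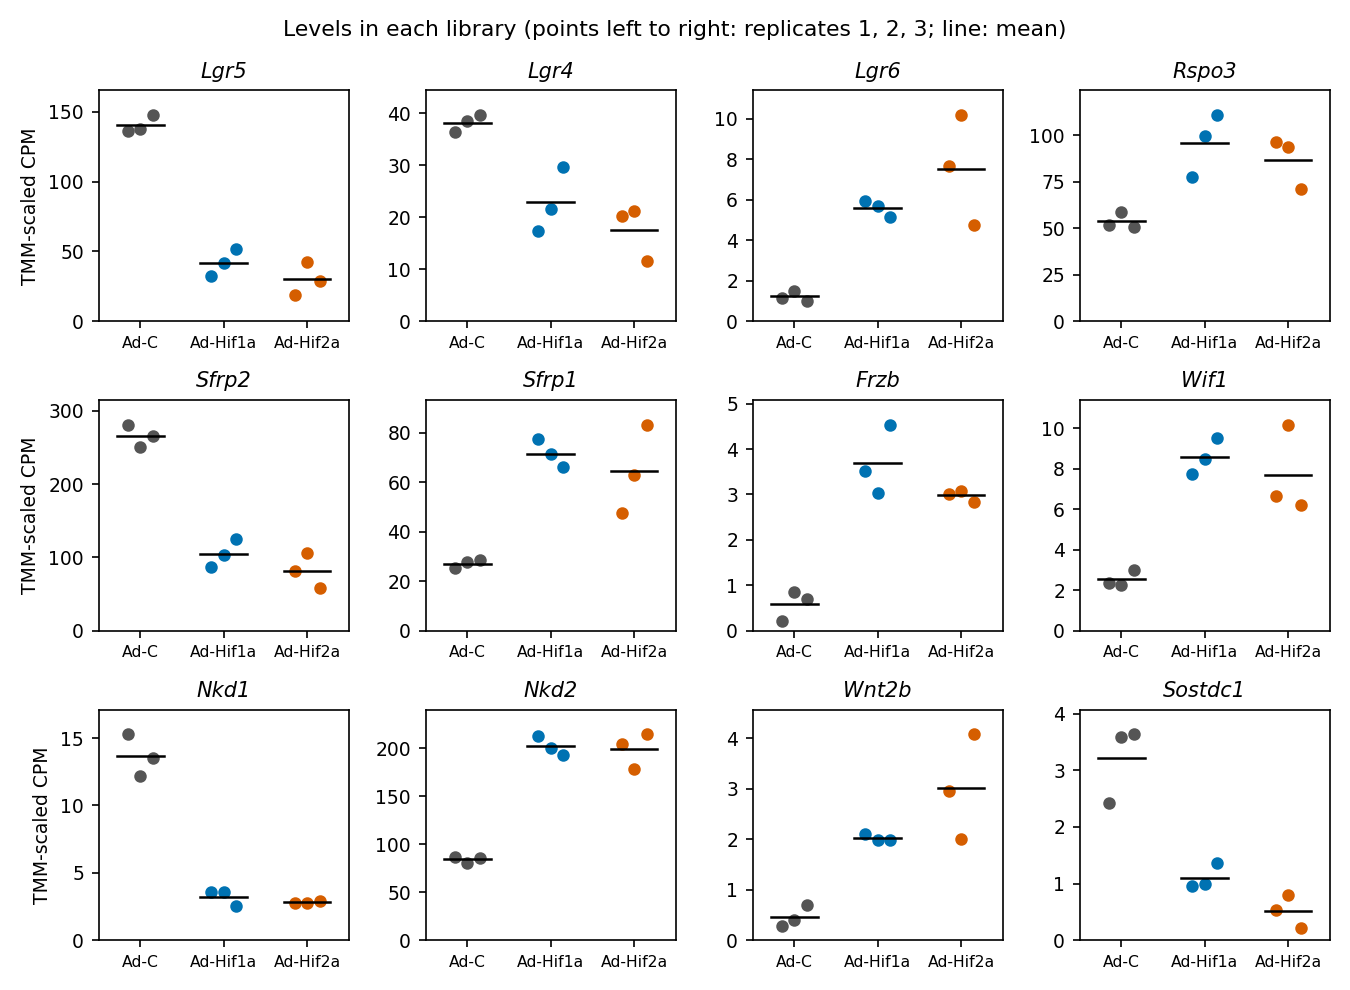
TMM-scaled CPM (y axis, linear from 0) of 12 Wnt genes in each of the 9 libraries, with replicates 1 to 3 from left to right within a group and the group mean as a line. Lgr5, Sfrp2 and Nkd1 are lower, and Lgr6, Sfrp1, Frzb, Wif1, Nkd2 and Wnt2b higher, in all 6 vector libraries than in Ad-C, and Ad-Hif2a replicate 3 is the lowest of its group for Lgr4, Lgr6 and Rspo3.

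Of the 10 tested antagonists 3 rose with each vector (Sfrp1, Frzb and Wif1), 1 fell with Ad-Hif1a (Sfrp2) and 3 fell with Ad-Hif2a (Sfrp2, Dkk3 and Sostdc1). The shares of all genes were 6.04% risen and 5.22% fallen with Ad-Hif1a, and 7.87 and 7.72% with Ad-Hif2a. The secreted frizzled-related proteins share the Wnt-binding domain of the frizzleds. Sfrp2 was at 281, 251 and 265 CPM in Ad-C, 87.3, 103 and 125 in Ad-Hif1a and 81.9, 106 and 58.1 in Ad-Hif2a. No vector library came near the Ad-C range, and Ad-Hif2a replicate 3 was the lowest. Its log2 fold change was -1.34 ± 0.25 (SE) with Ad-Hif1a (adjusted p = 0.0156) and -1.71 ± 0.25 with Ad-Hif2a (adjusted p = 0.00492). With Ad-Hif1a the call was lost without Ad-C replicate 1 or 3 or Ad-Hif1a replicate 1 or 2 (adjusted p of 0.0771 to 0.109), and 16.1% of the exon bases of Sfrp2 lie opposite another annotated gene. The promoter of Sfrp2 (chr3:83766071-83766320, forward strand), shown as that of the antagonist that fell with both vectors, held 1 core at position -151.
Sfrp2: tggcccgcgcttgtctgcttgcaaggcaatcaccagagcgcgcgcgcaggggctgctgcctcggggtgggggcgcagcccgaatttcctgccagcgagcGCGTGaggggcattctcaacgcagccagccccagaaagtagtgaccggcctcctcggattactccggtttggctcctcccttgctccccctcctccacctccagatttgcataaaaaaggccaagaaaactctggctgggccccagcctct

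Sfrp1 rose with both vectors. It was at 25.2, 27.9 and 28.4 CPM in Ad-C, 77.4, 71.5 and 66 in Ad-Hif1a and 47.4, 63.1 and 83.3 in Ad-Hif2a. The groups with a HIF vector lay above Ad-C throughout, and the Ad-Hif2a libraries spread to both sides of the Ad-Hif1a libraries. The log2 fold change of Sfrp1 was 1.41 ± 0.21 (SE) with Ad-Hif1a (adjusted p = 0.00653) and 1.23 ± 0.21 with Ad-Hif2a (adjusted p = 0.00889). Frzb, which encodes the cartilage-associated family member also called SFRP3, was at 0.221, 0.841 and 0.695 CPM in Ad-C, 3.51, 3.02 and 4.54 in Ad-Hif1a and 3.01, 3.09 and 2.84 in Ad-Hif2a. It stood on only 4, 15 and 13 counts in Ad-C and on 39 to 73 in the vector libraries. On the log2 scale Frzb differed from Ad-C by 2.67 ± 0.42 (SE) with Ad-Hif1a (adjusted p = 0.00800) and 2.38 ± 0.42 with Ad-Hif2a (adjusted p = 0.0104). The calls of Sfrp1 were lost without Ad-C replicate 1 or 3 with both vectors (adjusted p of 0.0589 to 0.0731) and, with Ad-Hif1a, without Ad-Hif1a replicate 2 (0.051), and those of Frzb without Ad-C replicate 3 (0.0596 and 0.0634).

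Within the SFRP family, Sfrp2 made up 93.3 to 94.7% of the level per kb in Ad-C, 66.2 to 75.5% in Ad-Hif1a and 55.8 to 74.6% in Ad-Hif2a, and Sfrp1 4.19 to 5.10%, 19.6 to 28.9% and 21.2 to 39.4%. The gain of Sfrp1 was smaller than the loss of Sfrp2 on this scale: the family summed to 125 to 138 CPM per kb in Ad-C, 61.2 to 77 in Ad-Hif1a and 48.3 to 66 in Ad-Hif2a. These shares within a family were computed after the fold changes were known, and no test was run on them.

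**Figure D3:**
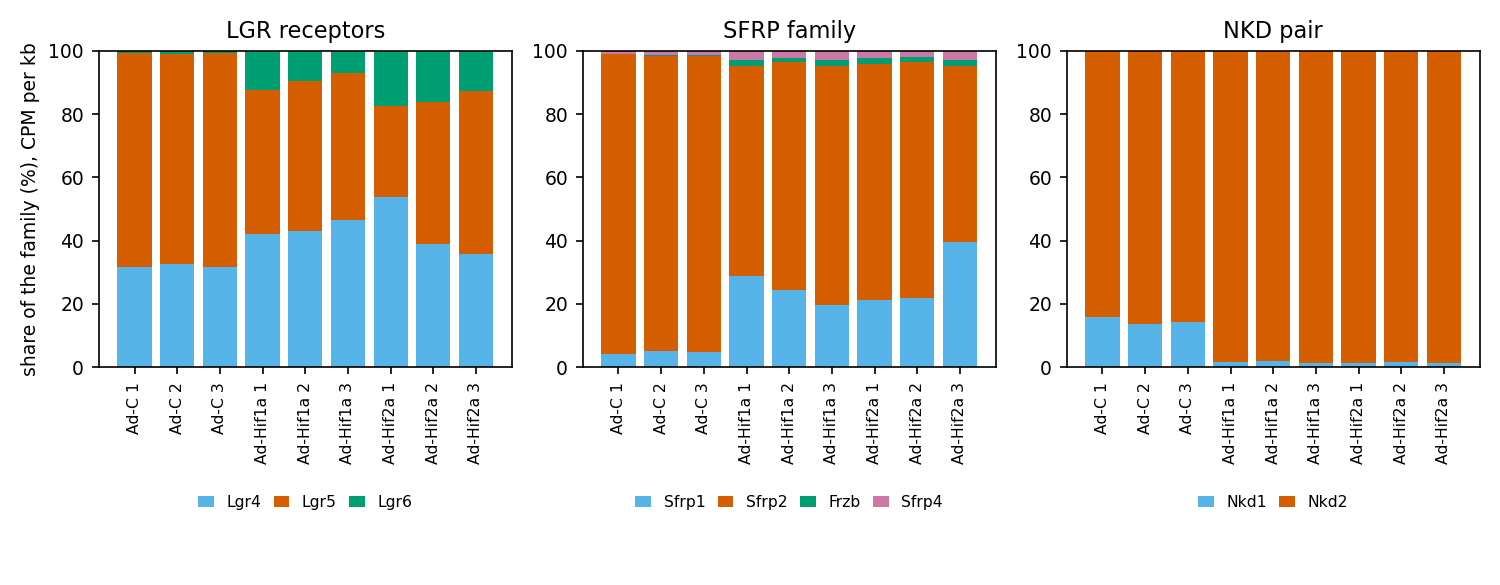
Share of each gene in its family (y axis, % of the summed CPM per kb of exon) in each of the 9 libraries for the LGR receptors, the SFRP family and the NKD pair. In all 6 vector libraries the share of Lgr6 and of Sfrp1 is larger, and that of Nkd1 smaller, than in any Ad-C library.

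Wif1, Wnt inhibitory factor 1, was at 2.37, 2.24 and 2.99 CPM in Ad-C, 7.76, 8.49 and 9.51 in Ad-Hif1a and 6.66, 10.2 and 6.19 in Ad-Hif2a. Each vector library lay above each Ad-C library. Wif1 had a log2 fold change of 1.75 ± 0.26 (SE) with Ad-Hif1a (adjusted p = 0.00624) and 1.58 ± 0.26 with Ad-Hif2a (adjusted p = 0.00764). The calls were lost without Ad-C replicate 1 with both vectors (adjusted p of 0.0543 and 0.0584) and, for Ad-Hif2a, also when Ad-C replicate 2 was dropped (0.0505). The promoter of Wif1 (chr10:121033754-121034003, forward strand) held the core on both strands in 1 palindrome, CACGTG, in which the matches overlap.
Wif1: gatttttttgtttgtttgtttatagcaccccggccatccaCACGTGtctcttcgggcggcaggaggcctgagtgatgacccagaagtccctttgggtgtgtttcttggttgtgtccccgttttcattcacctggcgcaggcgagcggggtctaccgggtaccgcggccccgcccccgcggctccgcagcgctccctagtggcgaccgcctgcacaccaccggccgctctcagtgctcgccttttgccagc

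Dkk3, a divergent Dickkopf, took the most counts of the 66 genes and was at 786, 795 and 833 CPM in Ad-C, 562, 606 and 594 in Ad-Hif1a and 549.7, 543 and 442 in Ad-Hif2a. The 3 groups of Dkk3 did not overlap, with Ad-Hif2a lowest. In the test, the log2 fold change of Dkk3 was -0.45 ± 0.15 (SE) with Ad-Hif1a (adjusted p = 0.111) and -0.66 ± 0.15 with Ad-Hif2a (adjusted p = 0.0292). Sostdc1, which encodes a secreted protein that binds both LRP5/6 and BMPs, was at 2.43, 3.59 and 3.64 CPM in Ad-C, 0.963, 0.989 and 1.37 in Ad-Hif1a and 0.531, 0.800 and 0.218 in Ad-Hif2a. Again the groups did not overlap, and Ad-Hif2a replicate 3, with 3 counts, was the lowest. Its log2 fold change was -1.52 ± 0.40 (SE) with Ad-Hif1a (adjusted p = 0.0550) and -2.59 ± 0.44 with Ad-Hif2a (adjusted p = 0.00918). With Ad-Hif2a, the call of Dkk3 was lost without any one of the Ad-C libraries, Ad-Hif1a replicate 2, or Ad-Hif2a replicate 1 or 2 (adjusted p of 0.063 to 0.175), and that of Sostdc1 without Ad-C replicate 2 or 3 (0.0505 and 0.0586).

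Kremen1, a co-receptor of some Dickkopfs, averaged 86.8 ± 6.97 CPM in Ad-C, 80.4 ± 10.4 in Ad-Hif1a and 87.9 ± 8.52 in Ad-Hif2a and was not called, and neither were Dkk2, Sfrp4 and Notum. Dkk2 was called as fallen with both vectors without Ad-Hif2a replicate 3. Dkk1, the best-known Dickkopf, lay under the filter and was picked out after its values were seen: it had 1, 0 and 0 counts in Ad-C, 6, 3 and 1 in Ad-Hif1a and 12, 9 and 6 in Ad-Hif2a. Dkk1 was thus near 0 throughout, with the most counts in Ad-Hif2a, and was called as risen with Ad-Hif2a when no filter on low counts was used.

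Of the 8 tested intracellular genes, the NKD pair was called with both vectors and in opposite directions. NKD1 and NKD2 bind Dishevelled and dampen Wnt signaling, and Nkd1 is known as a gene that β-catenin turns on. Nkd1 was at 15.3, 12.2 and 13.5 CPM in Ad-C, 3.57, 3.55 and 2.55 in Ad-Hif1a and 2.77, 2.74 and 2.91 in Ad-Hif2a. The lowest Ad-C library stood more than 3 times above the highest vector library. The log2 fold change of Nkd1 was -2.09 ± 0.21 (SE) with Ad-Hif1a (adjusted p = 0.00128) and -2.28 ± 0.21 with Ad-Hif2a (adjusted p = 0.000790), the lowest adjusted p of the 66 genes in each comparison.

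Nkd2 was at 86.7, 80.9 and 85.2 CPM in Ad-C, 212, 200.1 and 193 in Ad-Hif1a and 205, 178 and 215 in Ad-Hif2a. The vector groups overlapped each other and lay well above Ad-C, and Ad-Hif2a replicate 3 did not stand out. On the log2 scale Nkd2 differed from Ad-C by 1.26 ± 0.14 (SE) with Ad-Hif1a (adjusted p = 0.00185) and 1.24 ± 0.14 with Ad-Hif2a (adjusted p = 0.00161). Per kb, Nkd1 made up 13.8 to 15.7% of the pair in Ad-C, 1.38 to 1.84% in Ad-Hif1a and 1.41 to 1.60% in Ad-Hif2a, and the sum of the pair went from 19.4 to 21.3 CPM per kb to 40.6 to 44.8 and 37.5 to 45.1. The promoters of both are shown since the pair was called under every alternative; each held 1 core, at position -160 in Nkd1 (chr8:88527383-88527632, forward strand) and, on the opposite strand, at position -169 in Nkd2 (chr13:73847632-73847881, reverse strand).
Nkd1: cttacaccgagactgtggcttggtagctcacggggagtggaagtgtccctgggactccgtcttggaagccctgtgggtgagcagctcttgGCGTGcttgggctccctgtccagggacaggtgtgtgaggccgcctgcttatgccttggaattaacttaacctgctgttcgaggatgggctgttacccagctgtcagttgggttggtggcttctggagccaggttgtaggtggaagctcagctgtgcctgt
Nkd2: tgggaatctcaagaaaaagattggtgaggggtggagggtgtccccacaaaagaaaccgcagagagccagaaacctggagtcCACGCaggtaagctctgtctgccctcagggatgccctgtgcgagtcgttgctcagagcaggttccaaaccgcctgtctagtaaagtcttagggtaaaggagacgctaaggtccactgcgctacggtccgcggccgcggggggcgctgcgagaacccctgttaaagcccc
Neither held the TCF/LEF core in this window. The hypoxia response element core was in 9 of the 11 promoters of called genes that could be matched (81.8%), against 18 of the 28 of tested Wnt genes (64.3%) and 55.3% of those of all genes tested, and was not found in those of Frzb and Ror1. The TCF/LEF core was in none of the 11, against 3.57% of the 28 and 5.37% of those of all genes tested. The 6 promoters printed were picked with their matches known.

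Tcf7l2, a TCF/LEF factor, was at 33.8, 29.8 and 33.3 CPM in Ad-C, 21.4, 21.8 and 23.5 in Ad-Hif1a and 17.6, 21.9 and 16.2 in Ad-Hif2a. Both vector groups lay below Ad-C. Tcf7l2 had a log2 fold change of -0.54 ± 0.17 (SE) with Ad-Hif1a (adjusted p = 0.0932) and -0.80 ± 0.17 with Ad-Hif2a (adjusted p = 0.0219), and the call was lost without any one of the Ad-C libraries, Ad-Hif1a replicate 2 or Ad-Hif2a replicate 1 (adjusted p of 0.0588 to 0.153). Ctnnb1, which encodes β-catenin, averaged 504 ± 7.43 CPM in Ad-C, 479 ± 39.3 in Ad-Hif1a and 453 ± 116 in Ad-Hif2a, with log2 fold changes of -0.07 (95% interval -0.55 to 0.42) and -0.17 (-0.65 to 0.31). The large SD of Ctnnb1 in Ad-Hif2a came from replicate 3, at 318 CPM. Of the exon bases of Ctnnb1, 14.6% lie opposite Ulk4, which had 180 counts over the 9 libraries against 74173 for Ctnnb1. Axin1, a scaffold of the β-catenin destruction complex, averaged 41.9 ± 1.13, 38.8 ± 1.00 and 35.3 ± 1.60 CPM and was not called.

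Of the 8 genes named above as ones that Wnt signaling turns on, 6 were tested (Axin2, Nkd1, Notum, Tcf7, Lgr5 and Znrf3). Nkd1 and Lgr5 fell with both vectors and the other 4 were not called. Over all genes 5.22% fell with Ad-Hif1a and 7.72% with Ad-Hif2a. Axin2, the most widely used readout of β-catenin signaling and named here for that reason after its values were seen, was at 11.8, 10.8 and 10.6 CPM in Ad-C, 9.29, 11.1 and 11.4 in Ad-Hif1a and 16.2, 15.4 and 6.70 in Ad-Hif2a. The Ad-C libraries overlapped both vector groups, and Ad-Hif1a replicate 1 and Ad-Hif2a replicate 3 were the lowest of their groups. The log2 fold change of Axin2 was -0.05 (95% interval -0.76 to 0.66, adjusted p = 0.926) and 0.16 (-0.55 to 0.87, adjusted p = 0.712). It was called as risen with Ad-Hif2a when these 2 libraries were left out together. Tcf7, also named after its values were seen, was at 2.76, 3.42 and 2.25 CPM in Ad-C, 0.793, 0.872 and 1.68 in Ad-Hif1a and 1.36, 1.77 and 0.801 in Ad-Hif2a. All vector libraries of Tcf7 lay below Ad-C, with log2 fold changes of -1.31 (adjusted p = 0.103) and -1.09 (adjusted p = 0.121), and neither passed. Tcf7 was called as fallen with Ad-Hif1a without the replicate block, in DESeq2, in the fit of only the 6 libraries compared, without Ad-Hif2a replicate 3, and without that library and Ad-Hif1a replicate 1 together. It was called with both vectors without Ad-Hif1a replicate 3.

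The vectors were also compared with each other. No Wnt gene was called between Ad-Hif2a and Ad-Hif1a, where the share of all genes called was 0% in edgeR; at an unadjusted p under 0.05 there were 2 of the 47 Wnt genes (4.26%) and 338 of 14413 genes (2.35%), and DESeq2 called 19 genes, none of them a Wnt gene. The 2 were Rspo2, with a log2 fold change of -0.69 (95% interval -1.16 to -0.22), and Sfrp4, with -0.50 (-0.98 to -0.02), each with an adjusted p of 0.99984. All 3 Ad-Hif2a libraries lay below all 3 Ad-Hif1a libraries for 8 of the 47 (17.0%), namely Fzd2, Fzd4, Lrp5, Rspo2, Dkk3, Sfrp4, Sostdc1 and Axin1, against 3.21% of all genes, and above them for 2, Wnt5b and Wnt6 (4.26%), against 3.07%. The 6 genes called with Ad-Hif2a alone also had negative log2 fold changes with Ad-Hif1a, between -1.65 (Ror1) and -0.43 (Fzd8), and their intervals between the vectors were -2.17 to 0.02 for Sostdc1, -1.05 to 0.32 for Lgr4, -0.56 to 0.16 for Dkk3, -1.58 to 0.90 for Ror1, -0.66 to 0.15 for Tcf7l2 and -0.59 to 0.19 for Fzd8. That of Rspo3 was -0.59 to 0.31. These intervals all hold 0 and do not show that the vectors act alike.

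Beyond the 66 genes, 70 other genes of the pathway were listed and 67 of them tested, of which 6 rose and 10 fell with Ad-Hif1a, and 8 rose and 13 fell with Ad-Hif2a. As shares of the 67 these were 8.96 and 14.9% with Ad-Hif1a, against 6.04 and 5.22% of all genes, and 11.9 and 19.4% with Ad-Hif2a, against 7.87 and 7.72%. Their median log2 fold change was -0.10 and -0.20. The 70 genes were listed with earlier results of these data known, so these values describe the list and do not test it. In Wnt secretion, Porcn, the acyltransferase that lipid-modifies Wnts, was at 5.24, 5.44 and 6.31 CPM in Ad-C, 20.1, 19 and 16.7 in Ad-Hif1a and 16.8, 17.7 and 17.6 in Ad-Hif2a. It rose with both vectors, by 1.71 (adjusted p = 0.00129) and 1.61 (adjusted p = 0.00136) on the log2 scale, whereas Wls, the carrier of Wnts to the surface, was not called.

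At the cell surface, Draxin, a secreted guidance protein that also antagonizes Wnt signaling, was at 1.88, 2.58 and 1.87 CPM in Ad-C, 29.6, 30.5 and 36.5 in Ad-Hif1a and 43.6, 42.1 and 25.9 in Ad-Hif2a. This was the largest log2 fold change among the genes of both lists that were tested (3.95, adjusted p = 0.000368; 4.13, adjusted p = 0.000248). Apcdd1, a membrane inhibitor of the pathway, fell with both vectors (-1.05 and -0.85), as did Cthrc1 (-1.29 and -1.17), which helps Wnts bind ROR2, and the glypican gene Gpc6 (-1.36 and -1.68). Sdc1 rose with both (0.61 and 0.74). With Ad-Hif2a alone, Ptk7 and Ryk, which encode kinase-dead Wnt co-receptors, rose (0.69 and 0.53) and Lrp4 fell (-0.72).

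Inside the cell, 1 of 21 cytoplasmic genes was called, Amer1, a partner of APC, which fell with both vectors (-0.73 and -0.68). Over all genes 11.3% were called with Ad-Hif1a and 15.6% with Ad-Hif2a. The Dishevelled, GSK3 and casein kinase genes of that list were not called. Of 9 nuclear genes, Pygo1, a co-activator of β-catenin, and the co-repressor Tle4 fell with both vectors and Tle3 with Ad-Hif2a. Of the planar polarity and non-canonical genes, Prickle1 rose (1.35 and 1.34) and Camk2d fell (-0.76 and -0.91) with both vectors, and Daam2 fell with Ad-Hif2a (-1.64).

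Of 13 reported transcriptional targets outside the 66, 12 were tested, of which 2 rose and 3 fell with each vector. Tnfrsf19, which encodes the receptor TROY, was at 42.6, 42.2 and 42.6 CPM in Ad-C, 8.38, 9.54 and 11.6 in Ad-Hif1a and 8.91, 8.29 and 9.83 in Ad-Hif2a. Ccnd1, the gene of cyclin D1, was at 1028, 977 and 1016 CPM in Ad-C, 588, 501 and 448 in Ad-Hif1a and 362, 400.3 and 391 in Ad-Hif2a. Both fell without overlap with Ad-C, Tnfrsf19 by 2.12 and 2.24 and Ccnd1 by 0.98 and 1.39 on the log2 scale, and so did Id2 (-1.95 and -1.60). Ccn4, also known as WISP1, and Fosl1, an AP-1 subunit, rose with both vectors (1.52 and 1.57, and 1.15 and 1.87). The reported targets thus moved in both directions within each comparison, as all genes tested did. Many of these targets are also set by other pathways, and the list was made with earlier results of these data known.

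**Figure D4:**
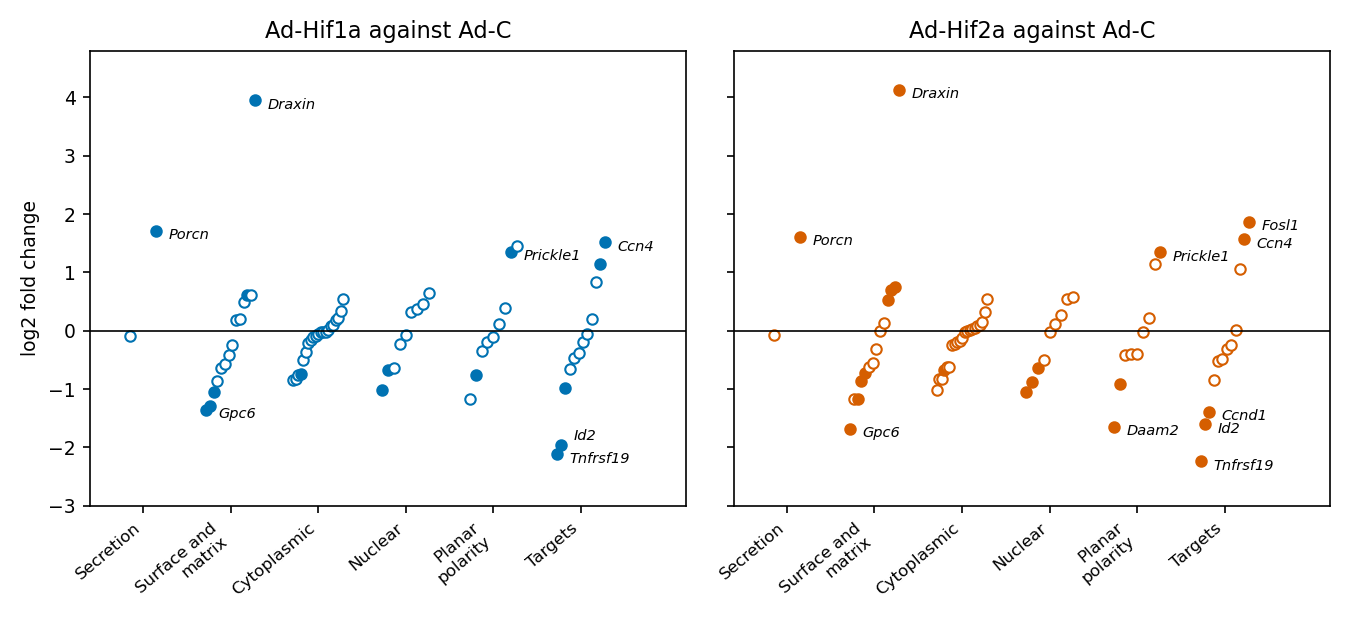
Log2 fold change (y axis) of the 67 tested genes of the other Wnt pathway list, by part of the pathway (x axis), for Ad-Hif1a against Ad-C on the left and Ad-Hif2a against Ad-C on the right; filled points passed an adjusted p of 0.05, and genes past it with the larger fold changes are named. Draxin is at 3.95 and 4.13, and 1 of the 21 cytoplasmic genes is filled in each panel.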

How the data were processed

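RNA was measured by sequencing in 9 libraries, 3 each of Ad-C, Ad-Hif1a and Ad-Hif2a, made by the authors with the CORALL RNA-seq V2 kit from total RNA. The deposited values were whole-number counts per gene symbol, 1 table per library; the submitters' processing notes name bcl2fastq 2.20.0.422, fastp, STAR, Salmon and GRCm39 without their roles, and the use of strand or of molecular identifiers was not given in the sources used here. Totals were 14372589 to 18623403 counts. Genes were filtered with filterByExpr (14413 of 40213 symbols kept), scaled by TMM and tested with edgeR 4.0.16 (robust quasi-likelihood fit over all 9 libraries, R 4.3.3) with the replicate number as a block, since the study names a paired test; the Benjamini-Hochberg adjustment covered all genes tested, with a threshold of 0.05. Genes past it are called risen or fallen. SEs and 95% intervals came from the same fit. It was also run on simulated data with 200 genes changed in Ad-Hif1a alone and no differences between replicate numbers. That run does not show how well the SEs or calls hold in these libraries. CPM were TMM-scaled; levels between genes were set per kilobase of the exon union in GENCODE M21, used for lengths and for overlapping genes only. Promoter letters came from RefSeq (GRCm38.p6), which matched 44 of the 66 symbols, 28 of them tested.

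Every gene called in at least 1 comparison and the 3 with the highest mean CPM in each role were named; others that are named were picked after their values were seen. The genes, lists and tests were chosen with earlier results of these data known. Alternatives were DESeq2 1.42.0, other scalings and filters, no block, fewer libraries and a test against a fold of 1.5. Marker lists were read off the same table.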

Additional observations from a re-analysis of the deposited data

How the results depend on the processing

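The main counts of risen and fallen Wnt genes were 7 and 4 with Ad-Hif1a and 6 and 10 with Ad-Hif2a. With Ad-Hif1a the number fallen was 9 in DESeq2, 12 when the 6 libraries compared were fitted alone, 15 when Ad-Hif1a replicate 1 and Ad-Hif2a replicate 3 were left out together and 2 against a fold of 1.5. With Ad-Hif2a, 10 rose when those 2 libraries were left out and 4 fell against a fold of 1.5. The share of all genes called with Ad-Hif1a was 17.1, 33.5, 27.6 and 5.19% in those settings, in that order, against 11.3% in the main fit. With Ad-Hif2a it was 28.7 and 7.29%, against 15.6%. Leaving out 1 library at a time gave 3 to 9 risen and 2 to 14 fallen with Ad-Hif1a, and 4 to 8 risen and 3 to 13 fallen with Ad-Hif2a. The share of all genes called then ran from 2.99 to 36.4% with Ad-Hif1a and from 4.67 to 22.6% with Ad-Hif2a. Between the vectors both counts were 0 in all alternatives. With RLE, upper-quartile or no composition factors, and with no filter, the counts stayed within 1.5 times of the main ones, and the median of all genes shifted by at most 0.05 on the log2 scale. Requiring 10 counts in every library removed Wnt2b, Frzb, Fzd9 and Sostdc1 from the test.

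Same-numbered libraries did not deviate together (correlation of their deviations from the group means of -0.575 to 0.098), so the numbers were taken not to pair the samples. The fit kept the replicate number as a block all the same, after the study's paired test. Without the replicate block 7 rose and 9 fell with Ad-Hif1a, and 8 rose and 12 fell with Ad-Hif2a. Of all genes 16.5 and 24% were called in that fit. Ad-Hif1a replicate 1 correlated with Ad-Hif2a replicate 3 at 0.61. No call changed direction under the alternatives run. The 19 genes not tested had too few counts for the filter, and 8 of them had none in any library. Whether more depth would have shown them was not tested. Wnt2b, Fzd9, Frzb and Sostdc1 rested on few counts.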
